A study of Mus musculus with 8 samples.

Results

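The proteasome genes of the mouse ileum were followed over 8 mice that had received the intestinal glucosidase inhibitor voglibose or water. The genes were taken by name: every gene whose platform symbol began with Psm, then a letter from a to g, then a digit. This rule gave 50 of the 19505 named genes, each with 1 of the 22206 probe sets on the array. They covered 13 genes of the core particle, 17 of the regulatory particle, the 5 immunoproteasome genes and 15 further genes, most of them activators, inhibitors and assembly chaperones.

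All mice were male KKAy, an obese and diabetic strain with the yellow agouti allele, aged 14 weeks at housing. A high-fat diet, in which fat supplied 45% of the energy, was fed for 4 weeks, and voglibose at 1 mg/kg or the same volume of water was then given by gavage each day for 8 weeks. There were 4 mice per group, each on its own array. No lean, untreated or chow-fed group was analysed here. RNA came from about 4 cm of whole ileum, so that a lower signal from fewer cells of a type and one from less RNA per cell cannot be told apart. The labels name no batch.

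The proteasome is the protease that degrades proteins tagged with ubiquitin. Its core particle is a barrel of stacked alpha and beta rings with the proteolytic sites inside, and its regulatory particle, made of a base and a lid, binds, unfolds and de-ubiquitinates the substrate. Interferons induce alternative catalytic subunits and the activator PA28, which together form the immunoproteasome, a form that favours peptides for presentation on MHC class I. In the intestine the epithelium itself makes immunoproteasome subunits, as do the immune cells below it.

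Signals are given as log2 values per probe set, as deposited, with array medians of 5.89 to 5.94, and differences are voglibose minus water. The precision is limited by the number of arrays, with a median SE of 0.18 over all probe sets. Enterocyte markers were bright in every mouse, with list means of 17.33 to 17.49 in water and 17.35 to 17.50 in voglibose mice. The ileal markers were not. Fabp6, the ileal bile acid binding protein, was 8.51, 17.50, 14.11 and 4.01 in water mice 1 to 4 and 8.14, 3.54, 10.78 and 11.68 in voglibose mice 1 to 4. In water mouse 4 and voglibose mouse 2 it thus lay at or below the lower quartile of the arrays (4.05 to 4.18), and the labelled region is not borne out by this marker there. Voglibose mouse 2 also had a signal of 12.01 for the pancreatic enzyme gene Cpa1, where the other mice had 4.72 to 5.37. The medians of the core, regulatory particle and immunoproteasome are given with and without these 2 arrays. So are the family count of lower genes at an unadjusted p under 0.05 and several single genes. Counts and medians of the alpha and beta rings, base, lid, chaperones and other gene lists are given with all 8 arrays only.

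The signal of core and regulatory particle genes was mostly lower after voglibose, in 25 of 30 genes with a median difference of -0.30, while the median over all probe sets was -0.005. No gene of the family passed the test over all probe sets, and neither did any other gene of the array, so that the share called was 0% (limma, Benjamini-Hochberg, smallest adjusted p = 0.652). At an unadjusted p under 0.05, 13 of the 50 genes were lower and 0 were higher, against 4.44% of all probe sets lower and 3.08% higher. All 13 also differed by more than 1.2-fold, a size named in the design text of the study. This adds no separate support, since such a p already requires a difference of about that size with these moderated SEs. These genes were bright, and among the 11333 brighter probe sets, those with a group mean above the array median, 7.08% were lower at this p. Of any size, 38 of the 50 genes were lower, where 50.9% of all probe sets and 56.8% of the brighter ones were. All 4 voglibose mice lay below all 4 water mice in 9 genes and above them in 0, against 2.53% and 1.82% of all probe sets. Members of a complex share their RNA samples and are not independent of each other, so that these shares describe the family and do not test it.

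The share of lower probe sets on the array depended on the scaling. In all, 1671 probe sets had a p below this value. The lower ones made up 59.1% of them, 50.5% after a further quantile normalization and 29.7% when arrays were centred on their brighter probe sets. Of the family, 9 genes were lower and 1 was higher at this p under each of these scalings, beside 3.59% and 2.31% of all probe sets lower and 3.52% and 5.49% higher. The higher gene was Psme3ip1, which encodes a protein that interacts with the activator PA28 gamma, at 0.38 and 0.40. Without voglibose mouse 1 the lower probe sets of the array dropped from 987 to 540, and the lower genes of the family from 13 to 9. Without both water mouse 4 and voglibose mouse 2, 6 of the 13 remained at this p, namely Psma1, Psma3, Psma5, Psmb3, Psmc6 and Psmd6. These 6 had such a p under every alternative run, while Psmb4, Psmb7, Psmc2 and Psmd13 had it in 7, 5, 7 and 8 of 16. Of these 16 runs, the one that averages the probe sets of a gene repeats the main fit, so that each of the 13 genes has such a p there.

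**Figure D1:**
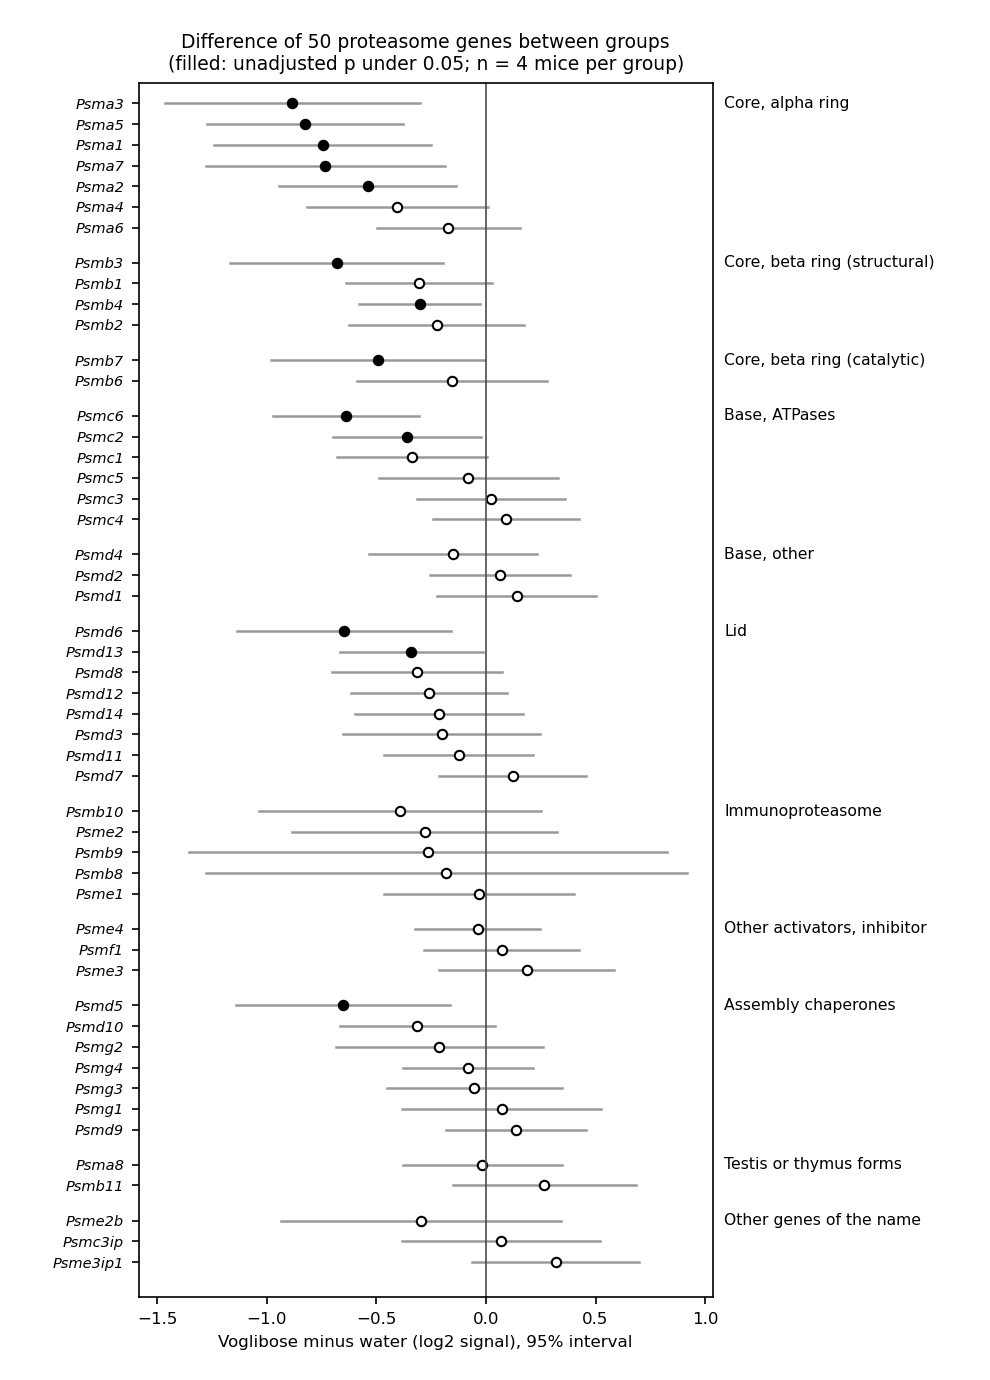
Difference between the groups (voglibose minus water, log2 signal) for the 50 genes, ordered by the part of the proteasome they encode, with 95% intervals from limma and 4 mice per group. Filled points are the 13 genes with an unadjusted p under 0.05; these lie left of 0, and none passed over all probe sets.

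The alpha ring, which gates the entrance to the core, held the largest differences. All 7 of its genes were lower in voglibose mice, 5 of them at an unadjusted p under 0.05, with a median difference of -0.73. Psma5 had 11.92, 12.18, 12.04 and 12.35 in water mice 1 to 4 and 10.72, 11.33, 11.65 and 11.49 in voglibose mice 1 to 4. The groups did not overlap, and voglibose mouse 1 was the lowest. The group means were 12.12 ± 0.19 and 11.30 ± 0.41 (SD, n = 4), a 1.77-fold lower signal with a difference of -0.83 ± 0.20 (SE).

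Psma3 differed by the largest amount of the family, -0.88 ± 0.26 (SE; 95% interval -1.47 to -0.30). It had 11.64, 12.33, 12.12 and 12.41 in water mice and 10.48, 11.30, 11.74 and 11.45 in voglibose mice. The groups overlapped, since voglibose mouse 3 lay above water mouse 1. Its promoter is shown because it carries the CCAAT box, the binding letters of the factor NF-Y, more than once. The window runs from 250 bases before to 50 after the start of the gene (RefSeq, GRCm38.p6, chr12:70974373-70974672, plus strand, 5′ to 3′), and capitals mark its 3 matches to CCAAT on either strand.
Psma3: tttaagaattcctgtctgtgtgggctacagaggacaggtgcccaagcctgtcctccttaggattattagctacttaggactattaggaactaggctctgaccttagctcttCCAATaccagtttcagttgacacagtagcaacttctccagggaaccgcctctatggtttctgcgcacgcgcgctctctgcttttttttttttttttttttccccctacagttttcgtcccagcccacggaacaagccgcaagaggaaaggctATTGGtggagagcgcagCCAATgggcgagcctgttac
Promoters of this length were at hand for 42 of the 50 genes. CCAAT stood in 16 of them (38.1%), and in 41.1% of all promoters. By class it stood in 6 of 10 core promoters (Psma1, Psma2, Psma3, Psma6, Psma7 and Psmb3), in 4 of 14 of the regulatory particle and in 1 of 5 of the immunoproteasome. Of the 12 promoters of genes that were lower at an unadjusted p under 0.05, 6 held the letters, and that of Psma5, the core gene with the smallest p, had 0 matches.

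Psma1 had 12.97, 13.15, 13.17 and 13.42 in water mice and 11.89, 12.28, 12.52 and 13.04 in voglibose mice, a difference of -0.74 ± 0.22 (SE). Voglibose mouse 4 lay within the water group. Psma7 had 11.01, 10.91, 11.45 and 11.78 against 10.03, 10.38, 10.90 and 10.91 (-0.73 ± 0.25), and its groups met at 10.91. Psma2 had 12.79, 12.73, 12.88 and 13.12 against 11.89, 12.29, 12.56 and 12.62 (-0.54 ± 0.18), with no overlap. In the remaining alpha genes the interval reached 0: Psma4 differed by -0.40 ± 0.19 (95% interval -0.82 to 0.008) and Psma6 by -0.17 ± 0.15. Without voglibose mouse 1 these were -0.25 and -0.10, and Psma6 was -0.096 without water mouse 4. Each of the 7 genes was lowest in voglibose mouse 1 and highest in water mouse 4.

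The beta ring carries the proteolytic sites. All 6 measured constitutive genes had lower means in voglibose mice, with a median of -0.30, and 3 of them had an unadjusted p under 0.05. The catalytic subunit gene Psmb5 was not among the 50 genes, so that the core as given here lacks it. Psmb3, a structural subunit, had 11.96, 12.67, 12.74 and 12.47 in water mice and 11.40, 11.57, 12.19 and 11.96 in voglibose mice, a difference of -0.68 ± 0.22 (SE). Voglibose mice 3 and 4 reached the level of water mouse 1, the lowest of its group. Psmb4, whose product also shapes the ring, varied least, at 11.72, 11.59, 11.67 and 11.79 against 11.34, 11.45, 11.39 and 11.38 (-0.30 ± 0.13), and its groups did not overlap. The structural genes Psmb1 and Psmb2 differed by -0.30 ± 0.15 and -0.22 ± 0.18, and Psmb2 by -0.12 without either water mouse 4 or voglibose mouse 1.

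Of the catalytic subunits, Psmb7, the trypsin-like site, had 13.87, 13.99, 13.90 and 14.21 in water mice and 12.89, 13.36, 13.78 and 13.97 in voglibose mice. The difference of -0.49 ± 0.22 (SE) was -0.29 without voglibose mouse 1, which alone lay below 13. Psmb6, the caspase-like site, had 12.15, 12.42, 12.46 and 12.71 against 11.76, 12.34, 12.55 and 12.47, a difference of -0.15 ± 0.20. Its groups overlapped, and the sign turned to 0.018 without voglibose mouse 1.

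**Figure D2:**
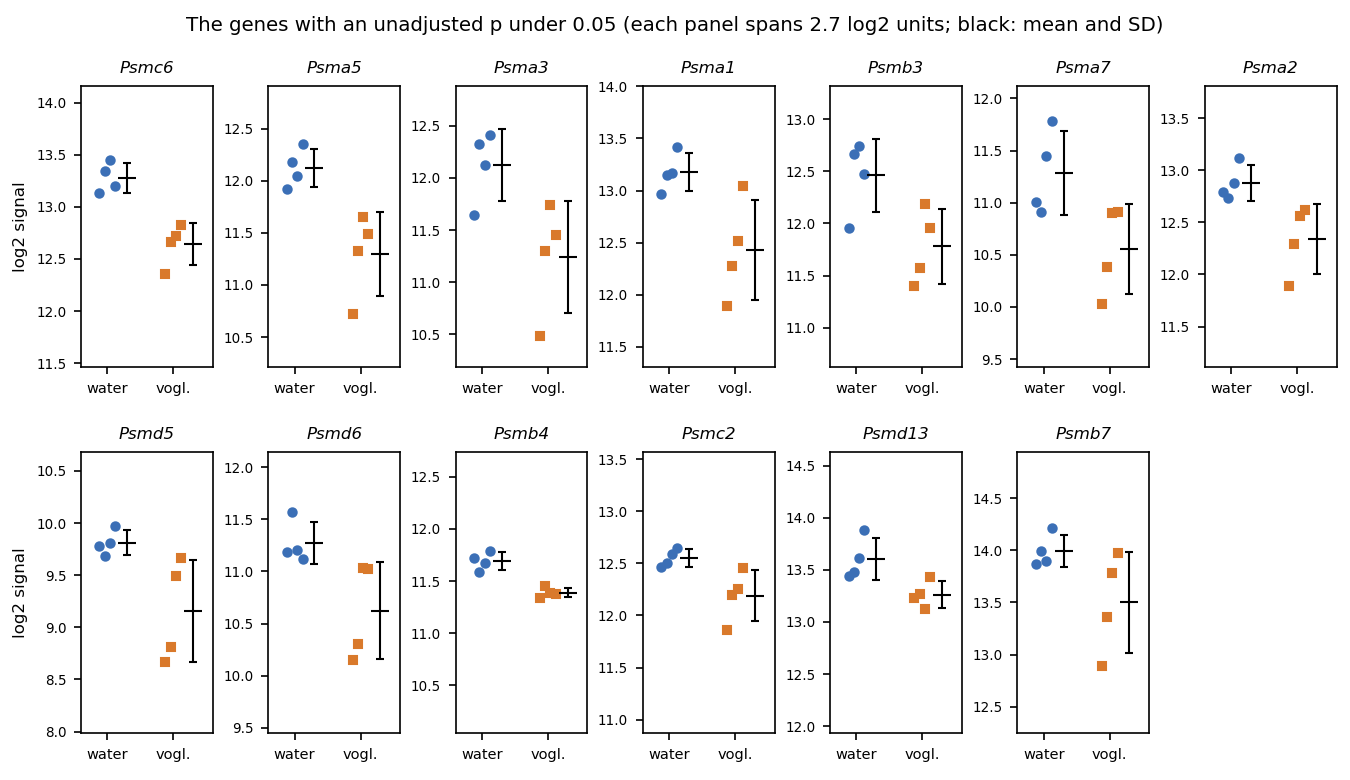
Log2 signal in each mouse for the 13 genes with an unadjusted p under 0.05, ordered by p, with circles for the 4 water mice, squares for the 4 voglibose mice and the mean and SD in black beside them. The groups are apart in 8 of these panels (Psmc6, Psma5, Psma2, Psmd5, Psmd6, Psmb4, Psmc2 and Psmd13), and the voglibose mice often spread more widely than the water mice.

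The core genes shared their lowest mouse and, with 1 exception, their highest, while the order in between varied. Voglibose mouse 1 was the lowest of the 8 mice in 13 of 13 core genes, and water mouse 4 was the highest in 12 of 13, the exception being Psmb3. Over the array, 14.1% of probe sets were lowest in voglibose mouse 1 and 19.3% highest in water mouse 4, and among the brighter probe sets these shares were 19.7% and 23.3%. With each gene set to its own mean over the 8 mice, the core averaged 0.03, 0.24, 0.24 and 0.48 in water mice 1 to 4 and -0.68, -0.29, -0.03 and 0.01 in voglibose mice 1 to 4. Water mouse 1 and voglibose mice 3 and 4 were therefore close to each other, while voglibose mice 1 and 2 stood below all others. The median core difference of -0.49 was -0.29 without voglibose mouse 1, -0.42 if water mouse 4 was left out, and -0.37 if voglibose mouse 2 was left out with it.

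**Figure D3:**
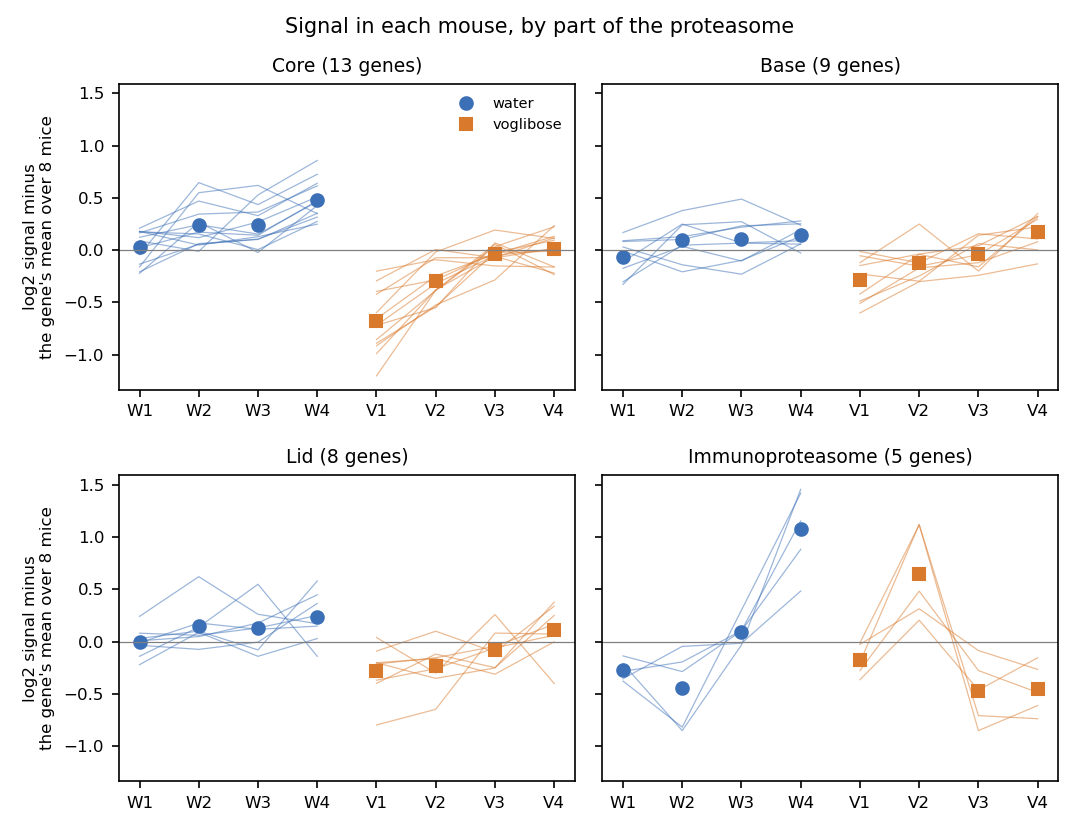
Log2 signal minus each gene's mean over the 8 mice, for water mice (W1 to W4) and voglibose mice (V1 to V4). Thin lines join the values of 1 gene and carry no order in time, and large symbols are the mean over the genes of the panel: the core is lowest in V1 (-0.68) and highest in W4 (0.48), and the immunoproteasome is highest in W4 (1.08) and V2 (0.65).

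The base of the regulatory particle was mixed in direction, with 5 genes lower and 4 higher. Its 6 ATPases unfold the substrate and open the core, and 4 of them were lower in voglibose mice. Psmc6 had the smallest p of the family (unadjusted p = 0.00141), with 13.13, 13.34, 13.45 and 13.20 in water mice and 12.36, 12.66, 12.72 and 12.83 in voglibose mice. Every voglibose mouse lay well below every water mouse, and the difference was -0.64 ± 0.15 (SE; 95% interval -0.97 to -0.31). It stayed between -0.70 and -0.54 under every alternative run. Its promoter (chr14:45329574-45329873, plus strand) is shown because it holds the letters of the antioxidant response element, TGACNNNGC, through which the factors encoded by Nfe2l1 and Nfe2l2 act on proteasome genes. Capitals mark the 1 match, which lies on the opposite strand.
Psmc6: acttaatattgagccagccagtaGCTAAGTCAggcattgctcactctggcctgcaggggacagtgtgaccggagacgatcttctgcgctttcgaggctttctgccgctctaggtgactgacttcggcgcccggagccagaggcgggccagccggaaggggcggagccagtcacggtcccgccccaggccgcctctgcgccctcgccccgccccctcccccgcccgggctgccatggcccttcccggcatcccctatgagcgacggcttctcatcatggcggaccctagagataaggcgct
This motif stood in 5 of the 42 promoters (Psmb6, Psmc6, Psmd9, Psmd12 and Psme4) and in 14.0% of all promoters. Among the 12 promoters at hand for genes that were lower at an unadjusted p under 0.05, Psmc6 alone held it.

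The ATPase genes Psmc2 and Psmc1 did not overlap between groups either. Psmc2 had 12.46, 12.50, 12.59 and 12.65 in water mice and 11.86, 12.20, 12.25 and 12.45 in voglibose mice, a difference of -0.36 ± 0.15 (SE). Psmc1 differed by -0.34 ± 0.16 with an unadjusted p of 0.0541. The other ATPases showed no such gap, with -0.08 ± 0.19 for Psmc5, 0.02 ± 0.15 for Psmc3 and 0.09 ± 0.15 for Psmc4, and each of these signs changed when single mice were left out. The 95% interval of Psmc3 (-0.314 to 0.36) overlapped that of Psmc6 (-0.97 to -0.305) at its edge, and that of Psmc4 (-0.24 to 0.42) did not. The difference between these genes was not tested, and Psmc6 stands out as the smallest p of the family. Of the other base subunits, the scaffolds Psmd1 and Psmd2 differed by 0.14 ± 0.17 and 0.06 ± 0.15 (Psmd2 -0.025 without water mouse 1), and the ubiquitin receptor Psmd4 by -0.15 ± 0.17 (-0.035 without voglibose mouse 1).

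In the lid, which removes ubiquitin before degradation, 7 of 8 genes were lower in voglibose mice, 2 of them at an unadjusted p under 0.05. Psmd6 had 11.19, 11.57, 11.21 and 11.12 in water mice and 10.15, 10.30, 11.03 and 11.02 in voglibose mice, a difference of -0.65 ± 0.22 (SE). Voglibose mice 1 and 2 lay far below, and mice 3 and 4 just below, the water group. Psmd13, a structural lid subunit, had 13.44, 13.48, 13.61 and 13.88 against 13.23, 13.27, 13.12 and 13.43 (-0.34 ± 0.15), and its groups did not overlap. The de-ubiquitinating enzyme of the lid, Psmd14, differed by -0.22 ± 0.17, being lower than the water group in 3 voglibose mice and above it, at 10.90, in mouse 4. Without voglibose mouse 4 the difference was -0.38 (unadjusted p = 0.0259, limma), and without water mouse 4 and voglibose mouse 2 together it was -0.12. Psmd8, Psmd12, Psmd3 and Psmd11 ran from -0.32 to -0.13, each with an interval that held 0, and without water mouse 4 and voglibose mouse 2 together Psmd8 was -0.14 and Psmd11 0.0067. Psmd3 was -0.053 without water mouse 3. Psmd7, the partner of Psmd14, was the 1 lid gene that was higher, by 0.12 ± 0.15.

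Over the 17 regulatory particle genes the median difference was -0.20 (-0.13 under both other scalings, -0.14 without water mouse 4 and voglibose mouse 2 together), with 12 genes lower and 5 higher, and 4 lower at an unadjusted p under 0.05. Psmc6 and Psmd6 kept this p without voglibose mouse 1 and also without water mouse 4. The spread between mice within a group, as the median pooled SD, was 0.19 for these genes, 0.30 for the core and 0.27 for the brighter probe sets of the array. Voglibose mouse 1 was lowest in 8 of 17 genes, and water mouse 4 and voglibose mouse 4 were highest in 6 each. Psmd12, at 11.70 in both, was counted for water mouse 4. The order of mice seen in the core was thus less uniform here. The difference between core and regulatory particle was not tested.

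Immunoproteasome genes followed single mice more than the groups. All 5 had lower means in voglibose mice, by a median of -0.26, but 0 had an unadjusted p under 0.05 and the groups overlapped in each. Psmb8, the induced chymotrypsin-like subunit, had 12.25, 11.61, 12.43 and 13.92 in water mice 1 to 4 and 12.45, 13.58, 11.61 and 11.85 in voglibose mice 1 to 4. Water mouse 4 and voglibose mouse 2 stood over 1 log2 unit above all other mice. The difference of -0.18 ± 0.50 (SE; 95% interval -1.28 to 0.92) became 0.28 when water mouse 4 was left out and -0.58 when voglibose mouse 2 was.

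The same 2 mice were highest in the other 4 genes. Over the array, 19.3% of probe sets were highest in water mouse 4 and 12.8% in voglibose mouse 2. These 2 arrays also deviated together over all probe sets (r = 0.40). The share of probe sets with both as the highest pair is not given here, so that this order cannot be called particular to these genes. Psmb9, which replaces Psmb6 in the immunoproteasome, had 10.44, 10.00, 11.12 and 12.24 in water mice and 10.62, 11.94, 10.11 and 10.08 in voglibose mice, a difference of -0.26 ± 0.50. Psmb10, which replaces Psmb7, had 11.57, 11.66, 11.96 and 13.01 against 11.49, 12.06, 11.39 and 11.70 (-0.39 ± 0.29, and -0.07 without water mouse 4). The subunits of the activator PA28 varied over a smaller range. Psme1 had 15.66, 15.97, 16.00 and 16.50 against 15.99, 16.33, 15.93 and 15.75 (-0.03 ± 0.20, with a changed sign under both other scalings), and Psme2 had 13.15, 13.00, 13.39 and 14.17 against 13.01, 13.77, 13.01 and 12.80 (-0.28 ± 0.28). Leaving out water mouse 4 gave -0.03 for Psme2 and 0.17 for Psmb9, and leaving out voglibose mouse 2 gave -0.49 and -0.68. Without water mouse 4 the median of the 5 genes was 0.12, and without water mouse 4 and voglibose mouse 2 together it was -0.20 with 4 of 5 genes lower.

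Psme2b, a gene copy named after Psme2, had 11.57, 11.22, 11.64 and 12.55 in water mice and 11.36, 11.89, 11.67 and 10.87 in voglibose mice, a difference of -0.30 that was -0.03 without water mouse 4. Its probes may also bind Psme2 transcripts, so that its signal is uncertain. Within each array, the log2 ratio of Psmb9 to Psmb6 was -1.71, -2.42, -1.34 and -0.47 in water mice and -1.14, -0.40, -2.44 and -2.39 in voglibose mice. That of Psmb10 to Psmb7 was -2.30, -2.33, -1.94 and -1.20 against -1.40, -1.30, -2.39 and -2.27. The size of such a ratio between 2 probe sets has no meaning by itself, but its change between mice does. Both ratios were shifted towards the induced subunit in water mouse 4 and voglibose mice 1 and 2. In voglibose mouse 1 the constitutive genes Psmb6 (11.76) and Psmb7 (12.89) were the lowest of all mice. The induced genes were not raised there: Psmb9 (10.62) and Psmb10 (11.49) lay within the range of the mice outside the highest pair, water mouse 4 and voglibose mouse 2. The group means of the ratios differed by -0.11 and 0.10, less than the SD within either group (0.53 to 1.00).

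Psmb9 lies beside Tap1, a subunit of the transporter that carries peptides to MHC class I, in opposite direction. Their promoter windows on chromosome 17 share 275 bases, which is why the window is shown (chr17:34187281-34187580, minus strand, as read for Psmb9). Capitals mark its 1 match to CCAAT, on the opposite strand.
Psmb9: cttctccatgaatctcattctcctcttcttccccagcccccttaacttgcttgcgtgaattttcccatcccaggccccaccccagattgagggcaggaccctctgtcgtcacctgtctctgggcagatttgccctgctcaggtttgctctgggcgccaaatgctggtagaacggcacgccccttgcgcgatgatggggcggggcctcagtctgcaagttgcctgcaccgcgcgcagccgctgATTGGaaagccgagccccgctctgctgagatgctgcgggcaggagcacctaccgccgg
Tap1 had 10.42, 10.34, 11.53 and 12.02 in water mice and 11.08, 12.26, 10.63 and 9.96 in voglibose mice, and was highest in the same pair of mice as Psmb9. The window of Psme1 (chr14:55578244-55578543, plus strand) is shown because it was the 1 immunoproteasome promoter with the letters GAAANNGAA of an interferon response element, marked in capitals on the opposite strand.
Psme1: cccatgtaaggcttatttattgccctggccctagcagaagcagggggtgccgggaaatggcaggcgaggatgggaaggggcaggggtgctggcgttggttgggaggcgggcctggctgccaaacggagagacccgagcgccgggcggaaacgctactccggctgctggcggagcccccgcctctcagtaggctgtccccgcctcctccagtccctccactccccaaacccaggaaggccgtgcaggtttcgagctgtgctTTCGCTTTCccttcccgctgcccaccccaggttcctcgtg
These letters stood in 7 of the 42 promoters and in 9.76% of all promoters, and those of the gamma-interferon activation site, TTCNNNGAA, in 3 (Psmb8, Psmd2 and Psmg1) and in 9.55%. Both strands were searched in every case, and none of the 4 motifs contains another, though GAAANNGAA and TTCNNNGAA can share bases.

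Other genes of class I peptide processing and their inducers shared this pair of highest mice in 5 of 8 measured genes (Tap1, Tap2, B2m, Ube2l6 and Irf1). As above, no array-wide share of the pair stands beside this count. Tapbp was highest in voglibose mouse 1 at 13.63, Erap1 had its second lowest value in voglibose mouse 2 at 13.33, and Ifng was highest in voglibose mouse 4 at 4.81. Of these 8 genes, from 10 listed, 6 were lower and 0 had an unadjusted p under 0.05, with a median difference of -0.12. Irf1, a transcription factor that induces immunoproteasome genes, had 13.53, 13.32, 13.33 and 14.77 in water mice and 12.95, 14.27, 13.41 and 13.49 in voglibose mice (-0.21 ± 0.35). Ube2l6, an interferon-induced conjugating enzyme, had 12.98, 12.80, 13.41 and 14.48 against 12.75, 13.49, 12.64 and 12.37 (-0.60 ± 0.35, unadjusted p = 0.111). The smallest p after it were those of Ifng (0.34 ± 0.20), B2m (-0.17 ± 0.14) and Erap1 (-0.15 ± 0.19), and Ifng, with 4.11 and 4.46, lay near the lower quartile of the arrays.

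Some regional markers moved with the immunoproteasome. The pair of mice with the highest Psmb8 had the lowest Fabp6, as given above, and the highest signals of the proximal genes Fabp1 (16.11 and 16.22, others 12.54 to 15.27) and Gata4 (12.13 and 12.24, others 9.41 to 11.75). The other proximal genes of the list did not share this order: Lct had 15.28 and 15.70 there, with 15.85 in voglibose mouse 1, and Cybrd1 had 5.66 and 6.39, with its lowest value in water mouse 4 and 7.02 in voglibose mouse 4. Of the other ileal genes, Slc10a2 was also lowest in this pair (5.69 and 6.12). Fgf15 had 5.10 and 5.22 there but was lowest in voglibose mouse 1 at 4.92. All 3 ileal genes had lower means in voglibose mice (median difference -2.50), with 0 at an unadjusted p under 0.05. The T cell list averaged 6.45 to 7.87 in water and 7.36 to 7.99 in voglibose mice, and 0 of its 6 measured genes had an unadjusted p under 0.05, while 2 of them, Cd3e and Cd8a, had the same pair of highest mice. The part of region, pancreatic tissue or immune cells in the immunoproteasome values was not tested.

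**Figure D4:**
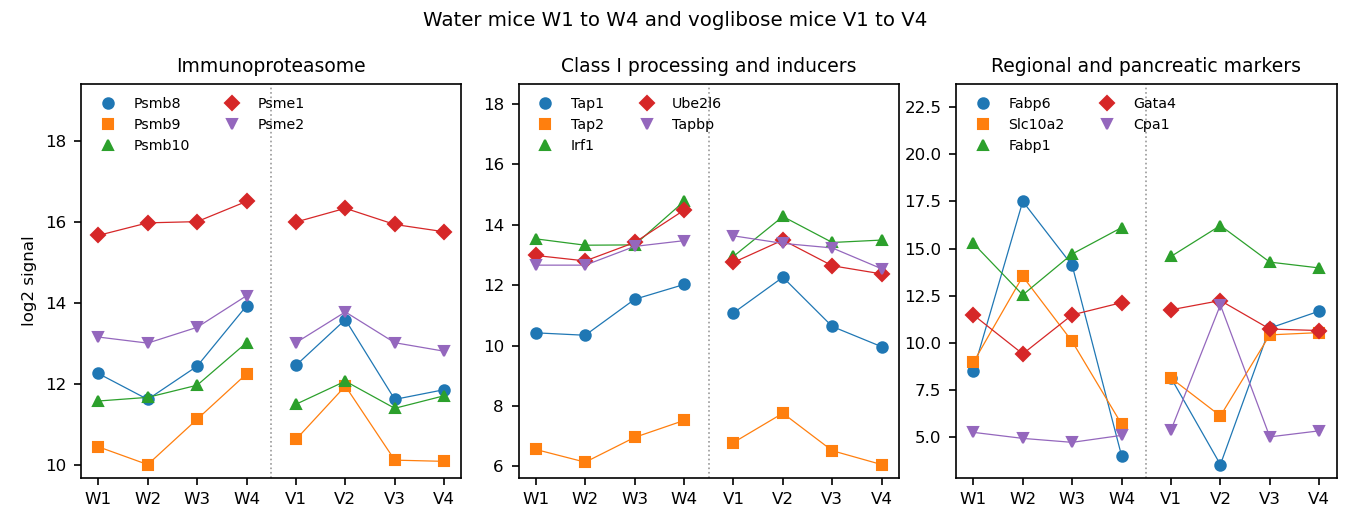
Log2 signal in each water mouse (W1 to W4) and voglibose mouse (V1 to V4) of the 5 immunoproteasome genes, of 5 genes of class I processing and its inducers, and of ileal (Fabp6, Slc10a2), proximal (Fabp1, Gata4) and pancreatic (Cpa1) markers. Lines join the mice of a group and carry no order; W4 and V2, highest for Psmb8 at 13.92 and 13.58, are lowest for Fabp6 at 4.01 and 3.54.

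Among marker lists, the mean of the macrophage list separated the groups, but its order of mice was not that of the core. With each gene set to its mean, it averaged -0.39, -0.07, -0.24 and -0.22 in voglibose mice 1 to 4. The list was lower in 6 of 6 measured genes, 3 of them at an unadjusted p under 0.05, and averaged 9.67 to 9.80 in water and 9.12 to 9.44 in voglibose mice. These 3 were Ccr2 (-0.965 ± 0.18), Cd14 (-0.89 ± 0.19) and Mrc1 (-0.42 ± 0.17). The intervals of Csf1r (-0.05 ± 0.23), Adgre1 (-0.185 ± 0.19) and Lyz2 (-0.285 ± 0.15) held 0, so that the macrophage genes did not differ alike. Fibroblast markers were lower in 5 of 5 measured genes, 1 at this p (Lum, -0.95 ± 0.41), with list means of 9.62 to 10.63 and 9.66 to 10.37. Smooth muscle markers followed mice, being lowest in water mouse 4 and highest in water mouse 2 in 6 of 6 genes, with 0 at this p. Enterocyte markers had 0 of 8 genes at this p and overlapping list means, while proliferation markers were lower in 4 of 5 genes, 0 at this p, and averaged 10.80 to 11.22 and 10.37 to 11.23. Set to gene means, the proliferation list was low in voglibose mice 1 and 2 (-0.46 and -0.44). It was high in water mouse 4 (0.38) and voglibose mouse 3 (0.40). The part of these marker lists in the core difference was not tested.

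Activators outside the immunoproteasome differed little. Psme4, the PA200 activator, had 12.86, 12.82, 13.04 and 12.91 in water mice and 12.80, 12.99, 12.88 and 12.81 in voglibose mice, which gave -0.04 (95% interval -0.32 to 0.25) and a changed sign under both other scalings. Psme3, the nuclear PA28 gamma, had 12.41, 11.73, 12.27 and 12.24 against 12.54, 12.52, 12.17 and 12.16 (0.19 ± 0.18, and 0.041 without water mouse 2). The inhibitor and adaptor Psmf1 had 10.64, 10.74, 11.02 and 11.19 against 11.02, 10.90, 11.14 and 10.82 (0.07 ± 0.16). Psme3ip1 had 10.48, 10.27, 10.69 and 10.78 against 11.21, 10.63, 10.79 and 10.86, the largest positive difference of the family at 0.32 ± 0.17 (unadjusted p = 0.0923, limma). It was 0.21 without voglibose mouse 1, and 0.47 without water mouse 4 and voglibose mouse 2 together (unadjusted p = 0.0335, limma).

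The assembly chaperones were mixed, with 5 of 7 lower and 1 at an unadjusted p under 0.05. That gene was Psmd5, whose product helps to build the base. It had 9.78, 9.68, 9.81 and 9.97 in water mice and 8.67, 8.81, 9.49 and 9.66 in voglibose mice, a difference of -0.65 ± 0.22 (SE) without overlap. Voglibose mice 1 and 2 were again the lowest, as in Psmd6 of the lid. The base chaperones Psmd10 (gankyrin) and Psmd9 differed by -0.31 ± 0.16 (-0.20 without voglibose mouse 1) and 0.14 ± 0.15 (0.062 without voglibose mouse 2). Of the chaperones of the alpha ring, Psmg2 had 9.91, 9.75, 9.55 and 9.54 against 8.95, 9.26, 9.81 and 9.88 (-0.21 ± 0.21, and -0.038 without voglibose mouse 1), and Psmg1 had 9.10, 8.94, 8.50 and 9.31 against 9.45, 9.01, 8.75 and 8.93 (0.07 ± 0.21). Psmg3 had 3.53, 4.16, 3.74 and 3.58 against 3.69, 3.79, 3.38 and 3.94 (-0.05 ± 0.18). Psmg4 had 5.08, 5.29, 5.22 and 5.0 against 5.19, 4.94, 5.08 and 5.05 (-0.08 ± 0.14), and both lay below the array median, where a difference is understated.

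The testis form Psma8 and the thymus form Psmb11 had water means of 3.25 and 3.92, at the dim end of the array, and differed by -0.02 ± 0.17 and 0.26 ± 0.19. Psmb11 was 0.12 without voglibose mouse 2. Psmc3ip shares the beginning of a name with Psmc3 but encodes a recombination factor. It differed by 0.07 ± 0.21.

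Of 3 proteasome genes listed under other names 2 were measured, and both were lower at an unadjusted p under 0.05. Sem1, a small lid subunit, had 13.06, 13.22, 13.00 and 12.99 in water mice and 12.15, 12.36, 12.98 and 12.50 in voglibose mice, a difference of -0.57 ± 0.18 (SE). Pomp, the chaperone of beta ring assembly, had 12.76, 12.90, 12.89 and 13.48 against 12.14, 12.53, 12.60 and 12.69 (-0.52 ± 0.19). In both the groups did not overlap and voglibose mouse 1 was lowest, although in Sem1 voglibose mouse 3 came close to the water mice.

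Among 17 measured genes, of 19 listed, whose products bind or regulate the proteasome, 14 were lower and 3 higher, with a median of -0.05 and 2 lower genes at an unadjusted p under 0.05. These were Uchl5, a de-ubiquitinating enzyme of the base (-0.36 ± 0.14, SE), and Ngly1, the glycanase that activates the product of Nfe2l1 (-0.35 ± 0.16). The proteasome-bound enzyme Usp14 and the thioredoxin-like Txnl1 differed by -0.28 ± 0.18 and -0.27 ± 0.18. Nfe2l1, which induces proteasome genes when degradation is blocked, had 12.09, 12.37, 12.14 and 11.97 in water mice and 12.33, 12.44, 12.33 and 12.05 in voglibose mice, a difference of 0.15 ± 0.15. The related Nfe2l2 differed by -0.04 ± 0.24. The 95% intervals, -0.18 to 0.47 and -0.58 to 0.49, both held 0, and the proteins were not measured.

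The ubiquitin and p97 list held 16 measured genes of 22, of which 13 were lower by a median of -0.08 over the list, and 0 had an unadjusted p under 0.05. The smallest p belonged to Faf1 (-0.20 ± 0.15), Ube2k (-0.15 ± 0.13), Nsfl1c (-0.13 ± 0.16) and Faf2 (-0.11 ± 0.17). Vcp, the p97 segregase that extracts substrates for the proteasome, differed by -0.08 ± 0.14, with a 95% interval from -0.38 to 0.23.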

How the data were processed

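The deposited values were log2 signals per probe set from 8 Affymetrix arrays, 4 per group, with 250 ng of RNA each. Per the submitters' processing notes the authors used RMA (a method that corrects background, equalizes the arrays by quantiles and summarizes probes) and the Transcriptome Analysis Console. Neither their versions nor the build behind the probe sets is given in the sources used here. The log2 scale was read from the deposited values. Normalization across arrays hides a change in total RNA, and dim or saturated probe sets understate differences.

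Groups and replicate numbers came from the labels. They name no batch. Each p-value sets the difference between groups against the spread between mice within a group, which limma moderates towards that of all probe sets. All 22206 probe sets, without a filter, were fitted with limma 3.58.1 in R 4.3.3 (lmFit, eBayes), 2-sided, with Benjamini-Hochberg adjustment over all of them and a threshold of 0.05; intervals are 95%. The fit was tested on simulated data. All 19572 annotated probe sets matched a gene identifier of the mouse RefSeq table (GRCm38.p6), which also gave the promoters.

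Genes named were all 50 members, with values in full for those at an unadjusted p under 0.05 and for the catalytic, immunoproteasome, activator and assembly genes; of each pathway list, the 4 with the smallest p; and 9 fixed genes, of which 3 were not analysed here. The members, lists and rules were chosen with earlier results of these data known. Alternatives were 2 other scalings (a further quantile normalization, and centring on the probe sets with a mean above the overall median), a filter on dim probe sets, 2 variance models, a replicate block, each mouse left out, and water mouse 4 and voglibose mouse 2 left out together. Averaging the probe sets of a gene changed nothing, since each member had 1. Plots were made in Python 3.11.15 with matplotlib 3.10.9.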

Additional observations from a re-analysis of the deposited data

Results flagged for a closer look

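In groups of 4 mice, a gene was singled out where its highest or lowest mouse stood apart from the other 3 by more, relative to the range of the group, than the 95% critical value of Dixon's test. About 1 in 20 groups does so by chance. Of 100 groups examined for the family, 2 did: Psmd2 had 11.59 in water mouse 1, where the other water mice had 11.94 to 11.96, and Psmd11 had 12.31 in water mouse 4, where the others had 11.87 to 11.94. Of 86 groups of the pathway genes, 6 did. Irf1 had 14.77 in water mouse 4 (others 13.32 to 13.53), the mouse with the highest immunoproteasome signals, and Faf1 had 10.56 there (others 10.18 to 10.23). Midn had 11.43 in voglibose mouse 1 (others 10.42 to 10.50) and Ube2s 7.86 (others 8.35 to 8.42). Ecpas had 10.23 in water mouse 2 (others 10.65 to 10.68) and Ngly1 8.82 in water mouse 1 (others 8.41 to 8.46).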

How the results depend on the processing

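No member passed over all probe sets under any of the 16 alternatives (smallest adjusted p = 0.505). Of the 13 genes at an unadjusted p under 0.05, 6 stayed under it and all kept their direction in every alternative. With single mice left out, the lower genes at this p numbered 9 to 18, those without overlap 9 to 17, and the probe sets of the array 969 to 1906 (540 to 1169 lower). Without water mouse 4 and voglibose mouse 2 together, 6 genes and 617 probe sets were lower at this p. Smaller groups separate more easily by chance, so the counts without overlap cannot be compared between runs that keep different mice. No share of all probe sets without overlap stands beside them for the runs with mice left out. With all mice kept, 7 genes were lower without overlap when centred on the brighter probe sets. This count was 9 after quantile normalization and 9 in the main fit. The array count was 1019 without dim probe sets, which leaves fewer to test and keeps 46 of the 50 genes, and 514 probe sets were lower when centred on the brighter probe sets. In that alternative, after quantile normalization and without the 2 mice, 1 gene, Psme3ip1, was higher at this p. The replicate block gave 13 lower genes and 1529 probe sets. Over all probe sets, mice of the same number did not deviate together (r = 0.015, -0.32, 0.014 and -0.18 for numbers 1 to 4). The largest r was 0.40, for water mouse 4 and voglibose mouse 2. These values show no pairing by number but cannot exclude one, since a smaller shared part could lie beneath larger differences between mice.

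Of the 50 genes, 15 changed sign in some alternative, all of them small differences or immunoproteasome genes. With single mice left out the ranges were -0.11 to 0.12 for Psma8, -0.25 to 0.018 for Psmb6, -0.58 to 0.28 for Psmb8, -0.68 to 0.17 for Psmb9, -0.073 to 0.092 for Psmc3, -0.068 to 0.21 for Psmc3ip, -0.0025 to 0.15 for Psmc4, -0.20 to 0.0058 for Psmc5, -0.025 to 0.12 for Psmd2, -0.16 to 0.12 for Psme1, -0.078 to 0.0067 for Psme4, -0.013 to 0.17 for Psmf1, -0.082 to 0.19 for Psmg1 and -0.13 to 0.083 for Psmg3. Centred on the brighter probe sets, Psma8 was 0.06, Psme1 0.045, Psme4 0.04 and Psmg3 0.025. After quantile normalization Psme1 was 0.024 and Psme4 0.0325. Without water mouse 4 and voglibose mouse 2 together, Psmc3ip was -0.07, Psmd11 0.0067 and Psme1 0.013. The causes were not tested.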
